A study of Mus musculus with 4 samples.

Results

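The control library of a total RNA sequencing series in MLg cells, an established fibroblast line from mouse lung, was read as a description of the cells' baseline transcriptome. It is 1 of the 4 libraries in the series, with 1 library per condition, and it was chosen by its label alone. For every gene symbol the transcript with the highest value in this library stood for the symbol, which gave 12767 symbols. Of these, 11772 were taken as coding because that transcript has a RefSeq mRNA accession, and 995 as noncoding. Levels are RPKM, counted reads scaled to transcript length and library total, so that genes of different length can be set side by side.

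All 4 groups were wild-type MLg cells transfected with an antagomiR, a synthetic oligonucleotide complementary to a microRNA that keeps it from its targets. The Ctr library, described here, came from cells given the negative control antagomiR. The other 3 libraries serve as a comparison. Mir9_LOF cells received the antagomiR against miR-9-5p, Tgfb cells the control antagomiR followed by human recombinant TGFB1, and Tgfb_Mir9_LOF cells both the miR-9-5p antagomiR and TGFB1. The sample protocols and the study's methods give 60 nM antagomiR and harvest at 24 h, and put TGFB1 at 5 ng/ml during the final 4 h, while the series text gives 10 nM and 48 h. Ctr cells are therefore transfected cells and not untouched ones, and no untransfected library was analysed here. With 1 library per condition no test between conditions was possible, no p-value was computed, and intervals are exact 95% Poisson intervals that cover counting error only.

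Fibroblasts build and remodel the connective tissue of the lung: they secrete collagens, fibronectin, laminins and proteoglycans, and they assemble, crosslink and degrade them. In the lung they are commonly divided into alveolar fibroblasts next to the gas exchange surface, adventitial fibroblasts around vessels and airways, and contractile myofibroblasts, each with its own marker genes. TGFB1 is the best known signal that pushes fibroblasts toward matrix production, and a cultured line such as MLg also carries the expression programme of dividing cells.

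The library total behind the RPKM was 27416665 in Ctr, the highest of the 4, against 14719887 in Mir9_LOF, 21807187 in Tgfb and 19019174 in Tgfb_Mir9_LOF. It is close to the sum of counts over all 25388 transcripts, 27413486 in Ctr. A read in an exon shared by several transcripts can thus enter it more than once, and it is not a number of distinct reads. The precursor of ribosomal RNA, Rn45s, took 17.9% of this total in Ctr, against 27.4% in Mir9_LOF, 15.3% in Tgfb and 21.4% in Tgfb_Mir9_LOF. Because RPKM divides by the library total, these shares lower every other value. The median coding gene was 0.18 higher in Ctr than in Mir9_LOF on the log2(RPKM + 1) scale, 0.01 higher than in Tgfb and 0.09 higher than in Tgfb_Mir9_LOF, and differences between libraries are read beside these shifts.

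Most measured genes were expressed at low levels, and few genes made up much of the mRNA. In the Ctr library 9474 of the 12767 symbols (74.2%) and 8894 of the 11772 coding symbols (75.6%) had an RPKM of 1 or more, the level called present below. The median coding symbol stood at 3.23 RPKM, with quartiles of 1.03 and 8.85, and rested on a median of 249 reads. An RPKM of 10 was reached by 2635 coding symbols (22.4%), 100 by 196, 500 by 18 and 1000 by 1 symbol. The 10 most abundant coding symbols held 6.55% of the summed coding RPKM, the first 100 held 26.2% and the first 1000 held 62.3%. These counts are of symbols with a value. Counts of present genes in the lists below are to be read beside the shares of 74.2% and 75.6%. Over all lists together, 1225 of 1448 distinct symbols with a value (84.6%) were present. Every transcript analysed had at least 21 reads over the 4 libraries together, so a gene without a value is listed as such and its level is not known here.

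The most abundant coding transcript was Actb, cytoplasmic beta-actin (chr5:142903115-142907976 in GRCm38, the assembly also called mm10), at 2248 RPKM in Ctr, against 1649 in Mir9_LOF, 2475 in Tgfb and 1766 in Tgfb_Mir9_LOF. Genes of the matrix and the secretory pathway came next among those described here, at lower levels. Thbs1 (chr2:118111876-118127133), which encodes thrombospondin 1, a secreted glycoprotein that can activate latent TGF-beta, had 927 RPKM in Ctr, against 422 in Mir9_LOF, 1202 in Tgfb and 711 in Tgfb_Mir9_LOF. Fbln2 (chr6:91212460-91272540), the elastic fibre and basement membrane protein fibulin 2, had 892 RPKM in Ctr, against 684, 1036 and 801 in the other libraries in the same order. Calr, a calcium-binding chaperone of the endoplasmic reticulum, had 861, and Bgn, the small leucine-rich proteoglycan biglycan, had 857. Among these 5 genes the Ctr value lay between those of the other libraries for every gene, below Tgfb and above Mir9_LOF.

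The 30 most abundant coding symbols fell into recognisable groups. Matrix and its assembly supplied Thbs1, Fbln2, Bgn, Aebp1 (532 RPKM), Col1a1 (509), Serpinh1 (472), the collagen-specific chaperone, Sparc (458), Fn1 (455) and P4hb (443), the shared subunit of the prolyl 4-hydroxylase that modifies collagen. The cytoskeleton supplied Actb, Vim (614), the intermediate filament protein of mesenchymal cells, Tubb5 (552), the actin-binding proteins Cfl1 (529) and Pfn1 (497), and Myh9 (468), the heavy chain of nonmuscle myosin IIA. Protein synthesis supplied Rpl8 (724), Eef2 (613), Rplp1 (609), Eef1a1 (537) and Fau (420), and protein folding and turnover Calr, Hsp90ab1 (780), Ubb (446) and Psap (463), a lysosomal activator precursor. The others were Lgals1 (596), a galectin, H1f4 (462), a linker histone, B2m (435), the light chain of MHC class I, Pkm (420), a glycolytic enzyme, and Lars2 (579). Lars2 encodes a mitochondrial leucyl-tRNA synthetase, and it had 1851 RPKM in Mir9_LOF, 573 in Tgfb and 1955 in Tgfb_Mir9_LOF, so that it was higher in the libraries with the larger Rn45s shares. The part of ribosomal reads in the Lars2 value was not tested.

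**Figure D1:**
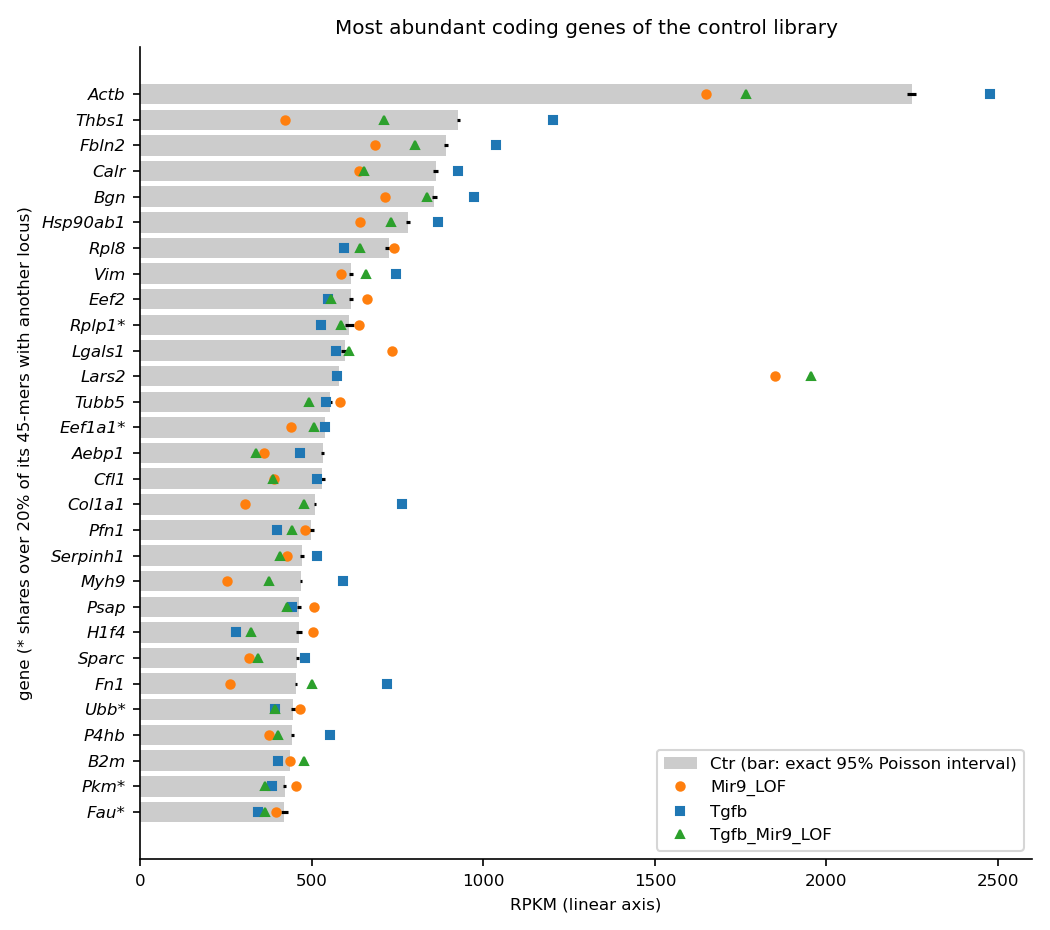
RPKM of the most abundant coding symbols of the Ctr library (bars, with exact 95% Poisson intervals for counting error) and in the other 3 libraries (points), on a linear axis; asterisks mark symbols that share over 20% of their 45-base stretches with other transcripts. Actb stands alone at 2248 RPKM, the next genes lie between 420 and 927, and Lars2 shows the widest gap between Ctr (579) and another library (1955 in Tgfb_Mir9_LOF).

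The same genes headed the other libraries. Of the Ctr top 30, 25 were also in the top 30 of Mir9_LOF, 26 in that of Tgfb and 28 in that of Tgfb_Mir9_LOF, and 21 were in all 3. Of the top 100, 77 were shared by all 4 libraries. Reads were at most 45 bases long after trimming, so transcripts that repeat such stretches elsewhere could not always be placed uniquely. Among the top 30, this touched Rplp1 (63.1% of its 45-base stretches shared with another transcript), Fau (62.9%), Eef1a1 (60.7%), Ubb (56.3%) and Pkm (34.6%), and Actb stood just under the limit of 20% at 19.1%. Gapdh, often used as a standard for abundance, shared 90.9% and was listed at only 48.8 RPKM, a value that cannot be read as its level.

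Most genes that mark fibroblasts in general were present. Of 25 listed genes 24 had a value, 21 were present, beside 75.6% of all coding symbols, and 20 reached 10 RPKM, with a median of 52.1 RPKM against 3.23 over all coding genes. The type I collagen genes Col1a1 and Col1a2 had 509 and 289 RPKM, Col3a1 of type III collagen had 27.3, and S100a4, also called fibroblast-specific protein, had 214. The platelet-derived growth factor receptor Pdgfra, a marker of lung fibroblasts, had 79.7 RPKM in Ctr (71.5 in Mir9_LOF, 57.3 in Tgfb and 61.7 in Tgfb_Mir9_LOF) and Pdgfrb had 40.5. The Pdgfra value comes from a short noncoding variant, and its 4 coding transcripts lay between 46.5 and 53.7 RPKM. Below 1 were Postn at 0.722, the matricellular protein periostin, and Fap at 0.150 and Nt5e at 0.0920, which encode cell-surface enzymes, while Pdpn at 2.89 was the lowest present. Thy1 had no value here.

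Markers of fibroblast subtypes were divided. Of 16 alveolar fibroblast genes, 8 had a value and 6 were present: Vegfd at 19.1 RPKM, Plin2 at 9.02, the integrin ligand Npnt at 8.02, its receptor chain Itga8 at 6.23, Mfap4 at 4.35 and Fgf10, a growth factor for lung epithelium, at 3.32. The Itga8 value comes from a noncoding transcript of the gene. The next gene down was Spon1 at 0.101. Tcf21, the lineage factor of lipofibroblasts, and Inmt, an alveolar fibroblast enzyme, had no value here.

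Of 19 adventitial fibroblast genes 11 had a value, 9 were present and 8 reached 10 RPKM, with a median of 35.2. Igfbp4, which binds insulin-like growth factors, had 201 RPKM, Serpinf1 111, Cd248 75.5, the complement component C3 71.3, and Dcn, the collagen-binding proteoglycan decorin, 48.2. The stem-cell antigen Ly6a had 30.6 RPKM in Ctr, against 50.1 in Mir9_LOF, 14.6 in Tgfb and 26.1 in Tgfb_Mir9_LOF. Pi16, Dpp4 and Col14a1, which define adventitial fibroblasts in tissue, had no value here. Mfap5 at 3.76 was the lowest present gene, and Has1 and Cd34, at 0.437 and 0.327, were below 1.

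Of 14 genes of airway and alveolar myofibroblasts, 8 had a value and 4 were present. Beside Pdgfra these were Actg2, an actin of visceral smooth muscle, at 13.3 RPKM, Wnt5a at 1.90 and Enpp2 at 1.47. Mustn1 at 0.963 had an interval of 0.654 to 1.37 that spans the limit. Hhip and Aspn had no value here, and Lgr6 stood at 0.152. With an RPKM of 2 as the limit, 2 of these genes were present.

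Genes linked to fibrotic and activated fibroblasts ranged from several of the most abundant to several near the floor in the Ctr library, to which no TGFB1 was added. Of 18 listed genes 14 had a value, 11 were present, a share close to the 75.6% of all coding symbols, and 9 reached 10 RPKM. Acta2, the smooth muscle alpha-actin that marks myofibroblasts, had 360 RPKM in Ctr, against 164 in Mir9_LOF, 420 in Tgfb and 214 in Tgfb_Mir9_LOF. Ccn2, connective tissue growth factor, had 180 in Ctr, against 98.1, 534 and 293 in the same order. Grem1, an antagonist of bone morphogenetic proteins, had 187, Sfrp1, an antagonist of Wnt ligands, 112, Timp1 103, Ltbp2 82.4 and Spp1 77.2. In contrast Cthrc1, a marker of collagen-rich fibroblasts in fibrosis, had no value here, and Postn and Il11 were at 0.722 and 0.139.

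Smooth muscle genes were present in part. Of 14 genes 11 had a value and 8 of these were present, a share close to the 75.6% of all coding symbols. They were led by Acta2, the actin-binding protein Tagln (93.7 RPKM in Ctr, 42.5 in Mir9_LOF, 142 in Tgfb and 64.8 in Tgfb_Mir9_LOF) and Smtn (33.9). Cnn1 was the lowest present at 1.95. Des, the muscle intermediate filament desmin, stood at 0.717 and Myh11, the myosin heavy chain of mature smooth muscle, at 0.145. Of 12 pericyte genes 5 had a value and 4 were present, namely Pdgfrb, Cspg4 (13.2), Mcam (7.31) and Notch3 (5.69), whereas Rgs5 and Kcnj8 had no value here.

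Markers of other cell types were mostly without a value. Of 16 endothelial genes 3 had a value and only Plvap was present (1.76 RPKM), with Eng at 0.277 and Kdr at 0.0729. The defining genes Pecam1 and Cdh5 had no value here. Of 20 epithelial genes 3 had a value and only Krt7 was present (6.65), with Nkx2-1 at 0.155 and Krt8 at 0.0203, which is 1 read. Epcam and Cdh1 had no value here.

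Of 18 leukocyte genes 7 had a value and 3 were present, the monocyte co-receptor Cd14 at 3.74 RPKM, Cd68 at 2.33 and the integrin chain Itgb2 at 1.57. Ptprc, which encodes the common leukocyte antigen CD45, had no value here. Of 15 neural genes 4 had a value and 2 were present, the intermediate filament gene Nes at 58.3 and the adhesion molecule Ncam1 at 10.7. Tubb3 and Map2 were at 0.168 and 0.142, and Rbfox3 had no value here. Ncam1 was 45.1 in Tgfb and 33.2 in Tgfb_Mir9_LOF, against 7.76 in Mir9_LOF.

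Of 14 genes of striated muscle 7 had a value and 3 were present, Tnnt2 at 10.3 RPKM, Acta1 at 5.33 and the cardiac factor Nkx2-5 at 1.56, while the myogenic factors Myod1, Myog and Myf5 had no value here. With 0.5 RPKM as the limit, 5 striated muscle genes were present. Of 12 adipocyte genes 5 had a value and 3 were present, Cebpb at 72.1, Plin2 and Lpl at 4.20. Adipoq and Pparg had no value here, and Cebpa stood at 0.402. Of 15 genes of cartilage and bone 7 had a value and 4 were present, Spp1, Sox9 (3.74), Runx2 (1.78) and Col11a1 (1.73). At a limit of 2 RPKM, 2 of these were present. The cartilage genes Acan and Col2a1 had no value here.

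A single mesothelial gene had a value, and it was high. Msln, which encodes the mesothelial surface protein mesothelin (chr17:25748613-25754378), had 35.6 RPKM in Ctr with an interval of 34.0 to 37.2, against 41.1 in Mir9_LOF, 30.2 in Tgfb and 26.8 in Tgfb_Mir9_LOF. The other 11 mesothelial genes listed, among them Wt1 and Upk3b, had no value here. Of the 15 marker lists, the one for fibroblasts in general had the most of its listed genes present, 21 of 25.

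**Figure D2:**
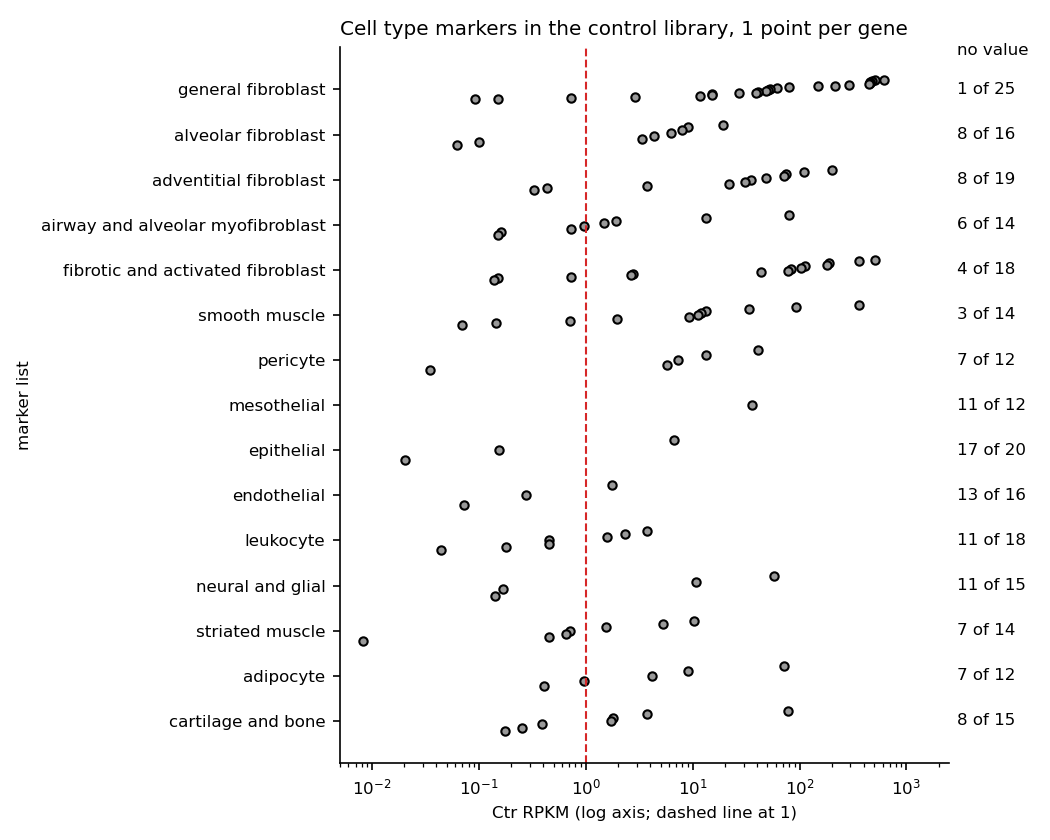
Ctr RPKM (log axis) of every gene with a value in the 15 marker lists, 1 row per list, with the number of listed genes without a value at the right and a dashed line at 1 RPKM. General fibroblast genes lie between 0.0920 and 614 RPKM with 21 of 24 above the line, while the endothelial and epithelial lists have 1 gene each above it.

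Collagen expression rested on few genes. Of 44 collagen genes 27 had a value, 16 were present and 12 reached 10 RPKM. Col1a1 (chr11:94936224-94953042) had 509 RPKM in Ctr, against 305 in Mir9_LOF, 762 in Tgfb and 478 in Tgfb_Mir9_LOF, and Col1a2 had 289, against 200, 380 and 265. The ratio of Col1a1 to Col1a2, whose chains combine 2 to 1 in type I collagen, was 1.76 in Ctr (counting interval 1.74 to 1.78), 1.53 in Mir9_LOF, 2.00 in Tgfb and 1.80 in Tgfb_Mir9_LOF. By RPKM, Col1a1 far exceeded Col3a1 of type III. It was 18.7 times Col3a1 in Ctr (counting interval 18.1 to 19.3), 13.4 times in Mir9_LOF, 17.5 times in Tgfb and 11.7 times in Tgfb_Mir9_LOF. Loss of short reads at exon junctions was not tested, and the counting intervals do not cover it. The pairs of genes set against each other here and below were chosen with the levels known.

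Basement membrane and fibril-regulating collagens came next. Col4a1 and Col4a2, whose chains form the common type IV network, had 142 and 105 RPKM. Of type V, which sets the width of type I fibrils, Col5a2 had 134 and Col5a1 61.2, a ratio of Col5a1 to Col5a2 of 0.458 in Ctr, against 0.513 in Mir9_LOF, 0.770 in Tgfb and 0.777 in Tgfb_Mir9_LOF, the lowest of the 4 libraries. The microfibrillar type VI genes Col6a3, Col6a1 and Col6a2 had 48.2, 39.1 and 27.6. Col11a1 at 1.73 was the lowest present, Col7a1, the anchoring fibril collagen, stood at 0.791, and Col2a1 had no value here.

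Many matrix glycoproteins stood well above the limit. Of 77 genes 64 had a value, 53 were present and 39 reached 10 RPKM, and together they held 4.35% of the summed coding RPKM. Among those with a value, the share present lay between the 75.6% of all coding symbols and the 84.6% over all lists. The share at 10 RPKM was above the 22.4% of all coding symbols. Fn1, fibronectin, had 455 RPKM in Ctr, against 262 in Mir9_LOF, 718 in Tgfb and 499 in Tgfb_Mir9_LOF. Sparc, a collagen-binding glycoprotein, had 458 in Ctr, against 317, 480 and 342 in the same order, and Aebp1, another collagen-binding protein, had 532, against 362, 466 and 337. Igfbp7 had 284 RPKM, Pcolce, the enhancer of procollagen cleavage, 245, and Mfge8 242. Thbs1 was 7.35 times its relative Thbs2 in Ctr, 6.5 times in Mir9_LOF, 11.3 times in Tgfb and 8.72 times in Tgfb_Mir9_LOF.

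Basement membrane genes were among the present ones: the perlecan gene Hspg2 had 96.7 RPKM, the nidogens Nid1 and Nid2 86.2 and 66.1, and the laminin chains Lamb2, Lamc1, Lama5 and Lamb1 64.2, 47.0, 37.5 and 36.6. Of the elastic fibre, Fbn1, the fibrillin 1 gene, had 38.6 RPKM in Ctr, against 20.9 in Mir9_LOF, 100 in Tgfb and 66.9 in Tgfb_Mir9_LOF, and Efemp2 and Fbln5 had 109 and 27.3. The elastin gene Eln had no value here. The genes of this paragraph were picked from the list with their values known. Tnxb at 1.43 was the lowest present glycoprotein gene and Sparcl1 at 0.811 the highest below 1.

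Among 27 proteoglycan and hyaluronan genes, 16 had a value and 9 were present, and Bgn stood far above the rest. Bgn had 857 RPKM in Ctr, against 714 in Mir9_LOF, 972 in Tgfb and 837 in Tgfb_Mir9_LOF. Next came Dcn at 48.2, which was 33.6, 34.2 and 39.3 in the other libraries in that order, then Lum at 15.1, Cspg4 at 13.2 and Prelp at 11.6. Vcan, versican, had 5.24, Hapln4 was the lowest present at 1.13 and Podn the highest below at 0.443. The hyaluronan synthases Has1, Has2 and Has3 were all below 1, at 0.437, 0.0774 and 0.185.

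Of 36 enzymes and chaperones that process the matrix, 32 had a value and 30 were present. Serpinh1 and P4hb led with 472 and 443 RPKM, followed by the prolyl isomerases Ppib (135) and Fkbp10 (77.6) and the crosslinking enzymes Loxl1 (74.7) and Tgm2 (67.6). The catalytic prolyl 4-hydroxylase subunits P4ha1, P4ha2 and P4ha3 had 28.9, 27.3 and 3.89. Lox, the lysyl oxidase that starts collagen crosslinks, had 11.6 RPKM in Ctr, against 7.03 in Mir9_LOF, 48.0 in Tgfb and 33.1 in Tgfb_Mir9_LOF. Adamts4 at 1.07 and Adamts12 at 0.603 lay on either side of 1.

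Of 43 matrix proteases and inhibitors 33 had a value and 28 were present. Inhibitors and lysosomal enzymes were high: the cathepsin gene Ctsd had 308 RPKM, and Timp2, a tissue inhibitor of metalloproteinases, had 279 in Ctr, against 224 in Mir9_LOF, 226 in Tgfb and 182 in Tgfb_Mir9_LOF. The gelatinase Mmp2 had 152 in Ctr, against 109, 171 and 128 in the same order, and its membrane-bound activator Mmp14 had 103. Timp2 was 1.84 times Mmp2 in Ctr, 2.06 times in Mir9_LOF, 1.33 times in Tgfb and 1.42 times in Tgfb_Mir9_LOF. Mmp3, stromelysin, had 4.41 RPKM, Mmp24 and Mmp16 lay at the limit with 1.00 and 0.898, and Mmp1a had no value here.

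**Figure D3:**
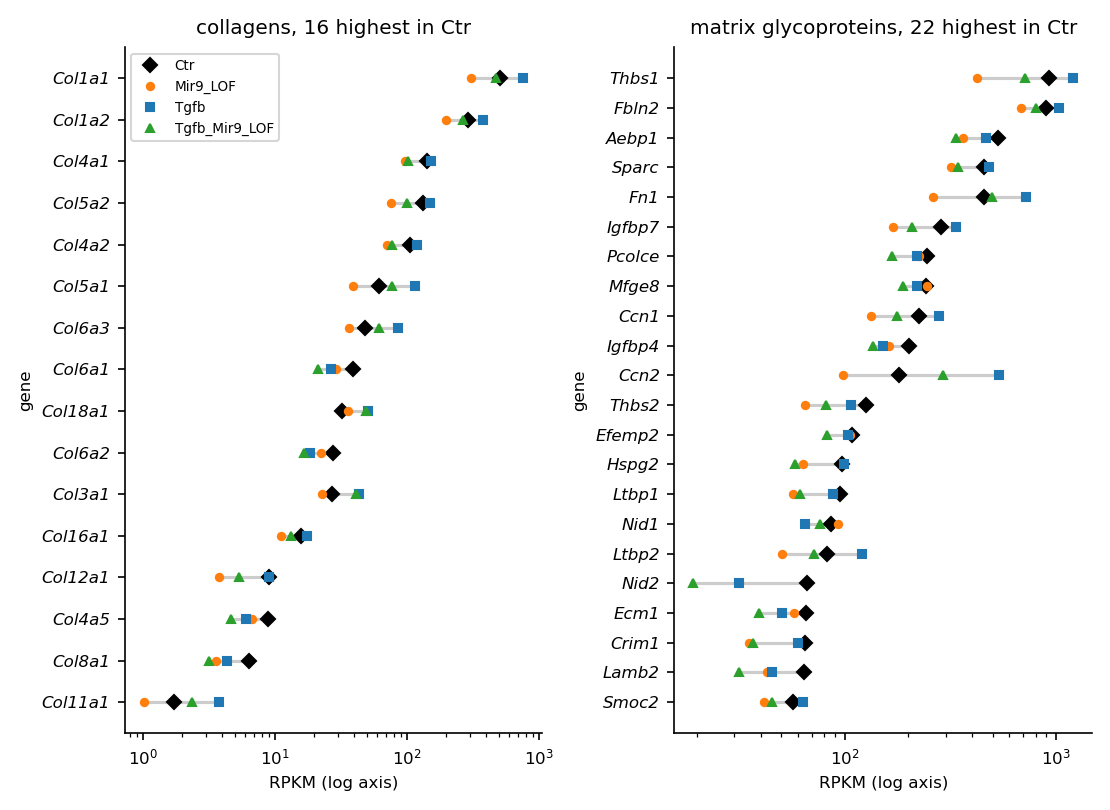
RPKM on a log axis of 16 collagen genes and 22 matrix glycoprotein genes in the 4 libraries, in the order Ctr, Mir9_LOF, Tgfb, Tgfb_Mir9_LOF. Col1a1 (509 RPKM in Ctr) and Thbs1 (927 in Ctr) head the panels, and Col1a1, Fn1 and Thbs1 are all lower in Ctr than in Tgfb.

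Of 51 receptor tyrosine kinases, through which growth factors signal, 33 had a value, 23 were present and 13 reached 10 RPKM. The share present among those with a value was below the 75.6% of all coding symbols. Axl, the receptor for the vitamin K-dependent ligand GAS6, had 222 RPKM in Ctr, against 206 in Mir9_LOF, 170 in Tgfb and 160 in Tgfb_Mir9_LOF. Pdgfra and Pdgfrb followed, with a ratio of 1.97 in Ctr, 2.82 in Mir9_LOF, 1.14 in Tgfb and 1.66 in Tgfb_Mir9_LOF. This ratio uses the short noncoding variant of Pdgfra. The 4 coding Pdgfra transcripts, at 46.5 to 53.7 RPKM in Ctr, stood closer to Pdgfrb at 40.5. Fgfr1, the main fibroblast growth factor receptor of mesenchyme, had 48.0. Epha2, Ptk7 and Ephb4 had 21.4, 21.2 and 21, Ddr1, a collagen receptor, had 19.9, and Egfr had 17.5. Mertk at 1.09 and Epha1 at 0.830 were nearest to the limit.

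The TGF-beta receptors were unequal in level. TGF-beta signals through a complex of type I and type II receptor kinases, with the third, betaglycan, presenting ligand. Tgfbr2, the type II receptor (chr9:116087695-116175363), had 29.1 RPKM in Ctr, against 29.8 in Mir9_LOF, 35.1 in Tgfb and 28.8 in Tgfb_Mir9_LOF. Tgfbr1, the type I receptor (chr4:47353222-47414926), had 0.605 RPKM in Ctr (interval 0.490 to 0.740, from 95 reads), against 0.463, 1.20 and 0.900 in the same order. Tgfbr2 was 48.1 times Tgfbr1 in Ctr (39.2 to 59.6), 64.3 times in Mir9_LOF, 29.2 times in Tgfb and 32 times in Tgfb_Mir9_LOF. Betaglycan, Tgfbr3, had 22.6. Of the 15 TGF-beta and BMP receptor genes 12 had a value and 7 were present, with Acvrl1, another type I receptor, at 10.9, Acvr1 at 5.6 and Bmpr2 at 4.04. Acvr1b at 2.31 was the lowest present and Acvr2a at 0.644 the highest below.

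Of 52 cytokine receptor genes 33 had a value and 29 were present. The list was led by Tnfrsf12a, the TWEAK receptor, at 79.3 RPKM, Tnfrsf1a, the main TNF receptor, at 43.7, Ltbr at 39.5 and Il6st at 37.4, the signalling chain shared by interleukin 6 family cytokines. Its partners Osmr and Lifr had 18.9 and 11.5, while the ligand-binding chain Il6ra had 3.75. Il1rl1, the receptor of interleukin 33, had 25.9 in Ctr, against 27.3 in Mir9_LOF, 61.3 in Tgfb and 54.4 in Tgfb_Mir9_LOF. Il1rap at 1.02 and Il15ra at 0.961 were nearest to the limit, and both intervals span it.

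Of 25 integrin genes 17 had a value and 13 were present. The chains that form fibronectin and vitronectin receptors were highest: Itga5 at 67.1 RPKM in Ctr (51.4 in Mir9_LOF, 130 in Tgfb and 96.1 in Tgfb_Mir9_LOF), Itgb1 at 62.1, Itgb5 at 46.3 and Itgav at 22.2. The laminin-binding Itga3 had 24.0, the collagen-binding Itga11 had 8.05, and the collagen-binding Itga1 and Itga2 had 1.14 and 1.03. Itgb3, at 0.437 in Ctr, was 0.307 in Mir9_LOF, 2.34 in Tgfb and 1.58 in Tgfb_Mir9_LOF.

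G protein-coupled receptors were sparser. Of 66 genes 35 had a value and 21 were present. F2r, the thrombin receptor PAR1, stood apart at 71.2 RPKM in Ctr, against 33.2 in Mir9_LOF, 78.0 in Tgfb and 55.5 in Tgfb_Mir9_LOF, and its relatives F2rl1 and F2rl2 had no value here. Adgra2, an adhesion receptor, had 22.5, S1pr2, a sphingosine 1-phosphate receptor, 12.2, and Npy1r, a neuropeptide Y receptor, 10.5. Ackr3 at 1.06 and Mrgprf at 0.747 lay next to the limit.

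Of 24 receptors for Wnt, Hedgehog and Notch ligands 20 had a value and 16 were present, against 10 with an RPKM of 2 or more. The Frizzled genes Fzd7, Fzd2 and Fzd1 had 29.2, 27.2 and 19.6 RPKM, whereas Fzd3 had 0.395. Smo, the Hedgehog signal transducer, had 25.7, and the Hedgehog receptor Ptch1, itself a common target of the pathway, had 0.988 (0.855 to 1.14). Lgr4 at 1.03 was the lowest present. Notch2 had 19.8, Notch3 5.69 and Notch1 1.52.

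Receptors for uptake and adhesion were nearly all present: of 46 genes 42 had a value, 38 were present and 31 reached 10 RPKM. Bsg, basigin, had 340 RPKM and the tetraspanins Cd63 and Cd81 had 332 and 204. Lrp1, a large endocytic receptor, had 167, the transferrin receptor Tfrc 4.13, and the syndecan Sdc4 71.2. Of Cd63, 40.9% of the 45-base stretches are shared with other transcripts. Robo1 and Alcam stood at the limit with 0.992 and 0.987.

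Of 43 nuclear receptors 29 had a value, 17 were present, and none was among the abundant genes. The retinoic acid receptors Rarg and Rara had 17.3 and 10.2 RPKM, the orphan receptors Nr2f2 and Nr2f6 16.1 and 12.5. The glucocorticoid receptor Nr3c1 had 2.86, and the mineralocorticoid receptor Nr3c2 had 0.220. Nr1d2 at 1.10 was the lowest present and Nr6a1 at 0.366 the highest below.

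Among secreted signals the highest was a chemokine. Of 50 cytokine and chemokine genes 30 had a value and 20 were present. Cxcl12, which retains CXCR4-bearing cells, had 318 RPKM in Ctr, against 221 in Mir9_LOF, 281 in Tgfb and 235 in Tgfb_Mir9_LOF. The monocyte chemoattractants Ccl2 and Ccl7 had 153 and 43.1, Mif had 144, and the fractalkine gene Cx3cl1 had 28.4. Of Mif, 52.6% of the 45-base stretches are shared. The interleukin 6 family was low, with Lif at 3.85, Il6 at 0.271 and Il11 at 0.139. Prl2c5 at 1.00 and Ccl27a at 0.893 were nearest to the limit.

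Of 72 growth factor genes 51 had a value and 39 were present. Csf1, the macrophage colony-stimulating factor, had 207 RPKM in Ctr, against 140 in Mir9_LOF, 220 in Tgfb and 152 in Tgfb_Mir9_LOF. Manf, a secreted protein of the stressed endoplasmic reticulum, had 134, and Igf2, a fetal growth factor, had 77.2 in Ctr, against 42.5, 72.8 and 47.3 in the same order. Vegfb, the activin chain Inhbb, Angptl2 and Slit2 followed at 32.4, 30.3, 26.2 and 24.7. The TGF-beta ligand genes Tgfb1, Tgfb3 and Tgfb2 had 9.55, 5.83 and 2.28. Gdnf at 1.01 and Fgf2 at 0.952 lay at the limit.

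Of 30 Wnt ligand and antagonist genes 10 had a value and 7 were present, and an antagonist dominated. Sfrp1 had 112 RPKM in Ctr, against 54.1 in Mir9_LOF, 75.1 in Tgfb and 36.5 in Tgfb_Mir9_LOF, the highest of the 4 libraries. The ligands Wnt10a, Wnt6 and Wnt5a had 8.0, 3.24 and 1.90, and the antagonist Dkk3 had 7.84. Rspo2 at 1.87 was the lowest present, Dkk2 at 0.789 the highest below, and Wnt1, Wnt2 and Wnt2b had no value here.

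Transcription factors of mesenchyme were present at modest levels. Of 76 listed genes 51 had a value and 39 of these were present, a share close to the 75.6% of all coding symbols. Only 4 reached 10 RPKM and the median was 2.14. Creb3l1, a factor of the endoplasmic reticulum membrane that promotes collagen secretion, had 28.9 RPKM in Ctr, against 25.7 in Mir9_LOF, 58.5 in Tgfb and 44.5 in Tgfb_Mir9_LOF. Osr1, a zinc finger factor of embryonic connective tissue, had 13.5 in Ctr, against 9.35, 8.92 and 7.13, and was highest in Ctr. Foxf1, the forkhead factor of lung mesoderm, had 12.1, against 10.6, 11.1 and 9.88, a narrow range.

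Sox4 had 10.6 RPKM and Tbx3 9.15. The mesenchymal factors Twist2, Twist1, Prrx2 and Prrx1 had 8.25, 8.10, 7.67 and 6.93, and the repressors Snai1 and Zeb1 had 5.72 and 5.29. Tbx5, which helps to pattern the lung bud, had 2.26, while Tbx4 and Tcf21 had no value here. Gata6 at 1.33 was the lowest present.

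HOX genes record position along the body axis and are kept on in cultured fibroblasts. Of the 39 HOX genes of the mouse 26 had a value and 13 were present. The clusters differed in level: the summed RPKM was 42.9 over the Hoxb cluster (7 of 9 genes with a value were present), 16.9 over Hoxc (4 of 7) and 12.3 over Hoxa (2 of 9), against 0.0755 over Hoxd, where Hoxd3 alone had a value and was not present. The highest gene was Hoxb9 with 12.7 RPKM in Ctr, against 8.72 in Mir9_LOF, 11.8 in Tgfb and 10.1 in Tgfb_Mir9_LOF. Hoxa7, Hoxb7 and Hoxc9 followed with 6.63, 6.55 and 6.38.

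Along the Hoxb cluster, Hoxb2 had 5.66 RPKM, Hoxb3 2.34, Hoxb4 4.14, Hoxb5 0.675, Hoxb6 5.08, Hoxb7 6.55, Hoxb8 4.88 and Hoxb9 12.7, so Hoxb5 was the lowest of these 8, between higher neighbours. Hoxb13, at the far end of the cluster, had 0.855. Hoxa9, a paralogue of Hoxb9, was at 0.0359, which is 3 reads. Hoxa2 and Hoxa3 had 0.803 and 0.892. Hoxa5, which acts in lung development, had 1.17 RPKM with an interval of 0.892 to 1.5. With the HOX cofactors of the Pbx, Meis and Pknox families added, the list had 48 genes, 35 with a value and 20 present, and 7 of their intervals spanned the limit. Hoxa10 at 0.981 was the highest below 1, and the cofactor gene Meis1 had 4.16.

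**Figure D4:**
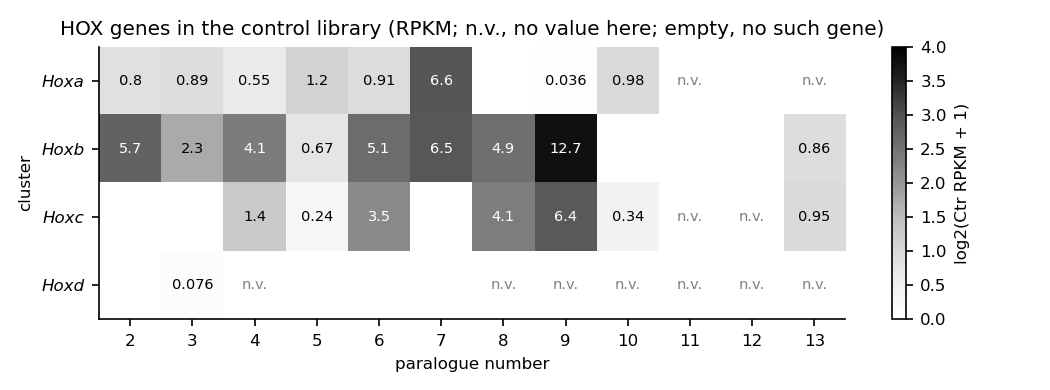
Ctr RPKM of the HOX genes of paralogue groups 2 to 13, laid out by cluster (down) and paralogue group (across), with shading by log2(RPKM + 1) and the RPKM printed in each square; n.v. marks genes with no value here, and empty squares hold no gene. Hoxb9 is the highest square at 12.7 RPKM, and the Hoxd line holds a single value of 0.0755.

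Signal-responsive factors were the larger group, with 167 of 181 genes having a value, 143 present and 44 at 10 RPKM or more. Ybx1, a nucleic acid-binding protein, had 84.5 RPKM, with 28.3% of its 45-base stretches shared. Cebpb, a factor of the acute phase and of adipocyte differentiation, had 72.1 in Ctr, against 73.2 in Mir9_LOF, 40.6 in Tgfb and 49.2 in Tgfb_Mir9_LOF. Atf4, of the integrated stress response, had 70.2, and Hmga1, Nfe2l1, Nfix and Srebf2 had between 50 and 53.7.

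Of the AP-1 family, Fosl1 had 20.0 RPKM, while the immediate early genes Fos and Fosb had 0.746 and 0.184. Fos was 0.485 in Mir9_LOF, 0.196 in Tgfb and 0.350 in Tgfb_Mir9_LOF. Jun, Junb, Fosl2 and Myc, named with their values known, had 18.2, 28.6, 22.4 and 17.1. The TGF-beta effectors Smad3 and Smad2 had 12.8 and 1.08, and the serum response factor Srf had 20.1. Lef1 at 1.02 and Bhlhe41 at 0.901 were nearest to the limit.

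Genes of DNA replication were expressed throughout. All 50 listed genes had a value and all were present, with a median of 7.96 RPKM, against 3.23 over all coding genes. Of the MCM helicase, which unwinds DNA at origins, Mcm3 had 87.6 RPKM in Ctr, against 76.1 in Mir9_LOF, 68.1 in Tgfb and 55.3 in Tgfb_Mir9_LOF, Mcm2 had 59.7, against 56.3, 45.5 and 40.8, and Mcm4 had 11. Mcm6, Uhrf1, Fen1, Rpa1, Mcm7 and Mcm5 lay between 33.6 and 42.6. The MCM genes and their loaders are induced ahead of S phase. The lowest of the list was the kinase gene Cdc7 at 1.09.

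The same held for mitosis and cytokinesis, where all 56 genes had a value and were present, with a median of 9.17 RPKM. Top2a, the topoisomerase of dividing cells, had 35.9 RPKM in Ctr, against 22.1 in Mir9_LOF, 29.5 in Tgfb and 26.9 in Tgfb_Mir9_LOF. Mki67, the standard marker of proliferation, had 19.9 in Ctr, against 12, 17.8 and 17.3, and Foxm1, the factor that drives mitotic genes, had 30.6, against 27.4, 22.4 and 22.6. The cyclin Ccnb1 had 6.17. Incenp, Ube2c, Birc5, Plk1 and Racgap1 had between 24.0 and 28.5. Counted over the list, Ctr was above all of the other 3 libraries by some amount in 46 of 56 genes and below all of them in 0 (in 1 with upper-quartile scaling), against 32.8% above and 8.8% below over the 9462 symbols compared. In DNA replication Ctr was highest in 36 of 49. These counts depend on scaling: with the other library sizes tried, 28 to 37 of 56 mitosis genes and 16 to 25 of 49 or 50 replication genes had Ctr highest, beside 17 to 24.7% of all symbols.

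Promoters of the mitosis genes were read for TTTGAA, the core of the cell cycle genes homology region through which the DREAM complex acts, on both strands, in windows from 250 bases before to 50 bases after the start from RefSeq (GRCm38.p6). The letters stood in 36 of 49 windows (73.5%), against 12.3% of the windows of measured coding genes and 17.9% of all 32851 windows. A match may also lie after the start. Of 23 matches examined wholly before it, 10 began within 50 bases of it. The 23 hold the same site of Bub3, and the same site of Ect2, once for each annotated start of the gene. The windows below are examples from genes with well-known mitotic roles, chosen after their values were seen, with 1 match of each gene in capitals. The matches shown for Top2a and Cdk1 begin 179 and 71 bases before the start. Each of these genes also has a nearer match, beginning 23 and 15 bases before it. In Ube2c it lies on the opposite strand and so reads TTCAAA.
Top2a, chr11:99024351-99024380, minus strand: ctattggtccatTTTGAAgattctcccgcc
Ube2c, chr2:164769888-164769917, plus strand: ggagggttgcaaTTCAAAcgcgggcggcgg
Mki67, chr7:135716478-135716507, minus strand: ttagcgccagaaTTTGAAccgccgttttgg
Cdk1, chr10:69352966-69352995, minus strand: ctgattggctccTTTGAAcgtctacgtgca
Cdc20, chr4:118437344-118437373, minus strand: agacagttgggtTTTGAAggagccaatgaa
A match describes the letters and is neither a site nor a cause. In the DNA replication list the E2F-type letters TTTGGCGC or TTTCGCGC stood in 11 of 50 windows (22%), against 1.54% of the windows of measured coding genes and 0.813% of all windows. CCAAT, the letters bound by NF-Y, stood in 75.5% of the mitosis windows, 60.0% of the replication windows and 82.4% of the histone windows, against 38.4% of measured coding windows and 37.4% of all windows. Letters may overlap between these searches.

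Among 52 cyclins, cyclin-dependent kinases and their inhibitors, 49 had a value and 45 were present. Cdk4, the G1 kinase, had 88.7 RPKM and was 45.9 times its relative Cdk6 (1.93) in Ctr, 53.4 times in Mir9_LOF, 33.8 times in Tgfb and 36.2 times in Tgfb_Mir9_LOF. Of the D cyclins that activate it, Ccnd1 had 55.4 RPKM in Ctr, against 56.0 in Mir9_LOF, 27.9 in Tgfb and 32.1 in Tgfb_Mir9_LOF, and Ccnd3 and Ccnd2 had 22.7 and 14.3. Ccnd1 was 3.87 times Ccnd2 in Ctr, 5.73 times in Mir9_LOF, 2.06 times in Tgfb and 2.34 times in Tgfb_Mir9_LOF, so the ratio was higher in both libraries without TGFB1 than in both with it. Trp53, which encodes p53, had 35.9 RPKM and its target Cdkn1a had 22.7. Mdm4 at 1.26 was the lowest present and Cdk7 at 0.611 the highest below, and the inhibitor genes Cdkn2a and Cdkn2b had no value here.

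Histone genes, most of whose mRNAs lack a poly(A) tail, were abundant in this library of total RNA. Of 76 histone genes 73 were present and 68 reached 10 RPKM, and together they held 4.38% of the summed coding RPKM. The linker histones H1f4 and H1f2 had 462 and 381 RPKM in Ctr, and H1f4 had 505 in Mir9_LOF, 279 in Tgfb and 322 in Tgfb_Mir9_LOF. H1f5 and H1f3 had 237 and 233. The core histone gene H2ac24 had 328. Because histone genes are near copies of each other, 52 of the 72 that could be looked up share over 20% of their 45-base stretches, and their single values are uncertain.

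The cytoskeleton and contractile genes formed the largest share of any list, at 8.19% of the summed coding RPKM. Of 62 genes 61 had a value, 58 were present and 54 reached 10 RPKM, with a median of 101 RPKM. Besides Actb, the cytoplasmic actin Actg1 had 354, so that Actb was 6.35 times as high, and Acta2 amounted to 0.160 of Actb in Ctr, 0.0997 in Mir9_LOF, 0.170 in Tgfb and 0.121 in Tgfb_Mir9_LOF. Cfl1, Pfn1 and Myh9 were named above, as was the galectin gene Lgals1, which the list also holds. Filamin A, Flna, had 346 and tropomyosin 1, Tpm1, had 337, both named with their values known. The actins share sequence, and the division of reads among them is uncertain. Cnn1 at 1.95 and Des at 0.717 were nearest to the limit.

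Promoters of this list were searched for the CArG box, the element bound by serum response factor, on both strands. It stood in 8 of 59 windows (13.6%), against 1.41% of the windows of measured coding genes and 1.63% of all windows. The 4 windows below show it in genes of high level, with the box in capitals.
Actg1, chr11:120348566-120348595, minus strand: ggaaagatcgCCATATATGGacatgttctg
Cnn2, chr10:79988534-79988563, plus strand: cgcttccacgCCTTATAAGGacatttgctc
Myl6, chr10:128493040-128493069, minus strand: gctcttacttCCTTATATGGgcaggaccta
Vcl, chr14:20929161-20929190, plus strand: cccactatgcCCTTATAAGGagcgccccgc
Actg1 had 354 RPKM, Cnn2, a calponin of nonmuscle cells, 203, Myl6, a myosin light chain, 101, and Vcl, vinculin of focal adhesions, 93.5. The box lies 90 to 81 bases before the start in Actg1 and 56 to 47 bases before it in Cnn2. Of the 30 most abundant coding genes 21 had a window, and the box stood in 0 of their 24 windows. The genes without a window were not searched.

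Housekeeping groups were present throughout. All 32 chaperone genes were present, with a median of 58.5 RPKM, led by Calr, Hsp90ab1, P4hb and Hsp90b1 (323), and Hspa5 and Hspa8 had 157 and 235. Of 29 translation factors 28 had a value and all of these were present, led by Eef2 at 613, and Eef1b2 had 69.1 while Eef1a2 had no value here. Of 20 glycolysis genes 19 had a value and 18 were present, with Aldoa at 214, Ldha at 179, and Eno1 at 118, the glucose transporter Slc2a1 at 38.9, and the hexokinases Hk1 and Hk2 at 21.4 and 14.2. Pfkm at 3.11 was the lowest present and Slc16a3 at 0.383 the only one below. All 86 cytosolic ribosomal protein symbols were present, from Rps15a at 1.99 to Rpl8 at 724. Of the 79 that could be looked up, 70 share over 20% of their 45-base stretches, so this spread is not a spread of true levels.

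Genes of interferon response and innate immunity were present in part: of 50 genes 42 had a value and 29 were present, with a median of 4.49 RPKM. Among those with a value, the share present was somewhat below the 75.6% of all coding symbols. The MHC class I genes B2m and H2-D1 had 435 and 231 RPKM. The interferon-induced Isg15 had 9.36 RPKM in Ctr, against 38.9 in Mir9_LOF, 7.99 in Tgfb and 35.5 in Tgfb_Mir9_LOF. Ifitm3, an interferon-induced membrane protein, had 172 in Ctr, against 299, 128 and 318. In both genes the Ctr and Tgfb values lay below both libraries with the miR-9-5p antagomiR. The list median was 4.49 in Ctr, against 9.88 in Mir9_LOF, 3.05 in Tgfb and 9.25 in Tgfb_Mir9_LOF. Stat2 and Irf1 had 7.38 and 17.0 RPKM, and Dhx58 at 1.14 and Tlr4 at 0.953 were nearest to the limit.

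Noncoding symbols were led by ribosomal and other structural RNA. Of the 995 noncoding symbols 580 were present. The precursor listed as Mir6236 had 56097 RPKM in Ctr, against 373336 in Mir9_LOF, 36141 in Tgfb and 428950 in Tgfb_Mir9_LOF, and Rn45s had 30623, against 47010, 26215 and 36731. Both were thus higher in the libraries with the miR-9-5p antagomiR, as Lars2 was. Together these 3 symbols took 18.8% of the library total in Ctr, 32.7% in Mir9_LOF, 16% in Tgfb and 27.4% in Tgfb_Mir9_LOF. The RNA subunits of RNase P and RNase MRP, Rpph1 and Rmrp, had 862 and 521 RPKM, and Malat1, an abundant nuclear RNA, had 312, against 188, 268 and 270. Neat1, the scaffold of paraspeckles, had 8.12. Of 47 listed nuclear and structural RNAs, among which Lars2 was counted, 33 had a value and 26 were present, with Snhg3 at 1.18 and Firre at 0.894 nearest to the limit. Groups of near-identical small RNA genes had the same counts to the read, among them 6 symbols with 4974 reads each in Ctr, so these are not separate measurements.

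All 78 small nucleolar RNAs with a value had an RPKM of 1 or more. On such short features few reads suffice, as for Snora3 with 1.53 RPKM from 5 reads in Ctr. Every transcript had at least 21 reads over the 4 libraries, so this count follows largely from that floor. The median of the small nucleolar RNAs was 11.8 RPKM in Ctr, against 14.6 in Mir9_LOF, 15.2 in Tgfb and 16.7 in Tgfb_Mir9_LOF. These RNAs guide the modification of ribosomal RNA. The highest, Snord15b, had 197 RPKM in Ctr, against 518, 638 and 514 in the same order, Snord14c had 188, against 453, 304 and 544, and Snord34 had 159, against 301, 468 and 483. Ctr was the lowest library for all 3. Most small nucleolar RNAs lie inside introns of other genes, and reads were counted on both strands, so reads from an overlapping transcript cannot be told apart from theirs.

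Of the X-linked transcripts, Xist, the RNA that coats the inactive X chromosome, had 10.8 RPKM in Ctr, against 7.89 in Mir9_LOF, 11.3 in Tgfb and 9.87 in Tgfb_Mir9_LOF. No symbol assigned to chromosome Y was among those with a value, Ddx3y and Uty included, while 425 symbols lay on chromosome X. The X-linked Ddx3x and Kdm5c had 16.2 and 8.47 RPKM, and Kdm6a had 0.861. Of 28 imprinted genes 19 had a value and 11 were present, led by Gnas at 204, Igf2 at 77.2 and its clearance receptor Igf2r at 58.7, and H19 and Meg3 had no value here. Plagl1 at 1.04 and Peg10 at 0.788 lay on either side of the limit.

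Genes of the study's own interest and of the microRNA machinery were present at low to middle levels. Of 28 listed genes 26 had a value and 24 were present, and these genes were picked by the study, so their presence is no independent evidence. Ncl, nucleolin, had 46.0 RPKM in Ctr, against 37.0 in Mir9_LOF, 55.3 in Tgfb and 59.6 in Tgfb_Mir9_LOF. Lzts2 had 23.8, against 23.4, 19.5 and 19.9, Hdac7, a class IIa histone deacetylase, had 16.3, and Zdhhc5, a palmitoyltransferase, had 15, against 12, 18.9 and 15.1. The microRNA processing genes Xpo5, Drosha and Dgcr8 had 15.5, 10.2 and 3.62 RPKM. Ago2, the slicing Argonaute, had 7.75, whereas Ago1 and Ago3 had 0.425 and 0.378, and Dicer1 was the lowest present at 1.01 (0.897 to 1.14).

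Mature microRNAs were not measured by this assay, since no small RNA library was analysed here, but transcripts that host microRNAs were. Of 54 symbols named for microRNA precursors or hosts 53 were present and 16 reached 10 RPKM, most from few reads on short features. The count present thus follows largely from the floor of 21 reads over the 4 libraries. The following mature sequences from RefSeq (GRCm38.p6) are shown because the first is the target of the antagomiR and the others come from hosts with a value, with the seed, bases 2 to 8, in capitals.
miR-9-5p: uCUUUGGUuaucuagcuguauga
miR-22-3p: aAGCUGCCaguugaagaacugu
miR-100-5p: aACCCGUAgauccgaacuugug
miR-125b-5p: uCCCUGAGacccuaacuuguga
miR-199a-3p: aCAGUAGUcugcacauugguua
miR-214-3p: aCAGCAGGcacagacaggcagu
miR-17-5p: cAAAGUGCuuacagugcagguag
No pair among these shares a seed. The miR-9-5p sequence is encoded at chr3:88215613-88215635, chr7:79505279-79505301 and chr13:83738821-83738843. C130071C03Rik, the host transcript of the chromosome 13 copy, had 19 reads and 0.197 RPKM in Ctr, against 0.174 in Mir9_LOF, 0.130 in Tgfb and 0.269 in Tgfb_Mir9_LOF. The host of miR-22-3p, Mir22hg, had 1.84 RPKM, and Mir100hg, the host of miR-100-5p and of 1 copy of miR-125b-5p, had 2.05. Dnm3os, which hosts a copy of miR-199a-3p and miR-214-3p, had 0.534, and Mir17hg, the host of miR-17-5p, had 0.250. Host reads do not measure the mature microRNA.

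The Ctr library was last set against the other 3 for genes that stood apart, as a description with 1 library per condition. A symbol was counted when its Ctr log2(RPKM + 1) lay outside the range of the other 3 by at least 0.58, which is about 1.5-fold, among 9462 symbols with enough signal. Ctr stood above in 54 symbols (0.571%), of which 49 were coding and 5 noncoding, and below in 25 (0.264%), of which 3 were coding and 22 were small nucleolar RNAs. By any amount, Ctr was highest in 3106 symbols (32.8%) and lowest in 833 (8.8%). The split depends on the scaling. With totals that leave out Rn45s it was 43 above and 33 below, with totals that also leave out Mir6236 and Lars2 31 and 36, with libraries centred on their median 30 and 34, and with upper-quartile scaling 27 and 34. It also depends on which libraries are compared: without Mir9_LOF the counts were 168 above and 117 below, and without Tgfb 146 and 112.

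The coding genes farthest above the others included several secreted regulators and matrix proteins. Bmp4 (chr14:46383525-46390669), a bone morphogenetic protein of lung mesenchyme, had 8.38 RPKM in Ctr, against 3.24 in Mir9_LOF, 3.52 in Tgfb and 1.94 in Tgfb_Mir9_LOF, a gap of 1.05 on the log2 scale. Fst, follistatin, which binds activins and bone morphogenetic proteins, had 17.6 in Ctr, against 8.42, 7.34 and 3.96, a gap of 0.98. Nid2, a basement membrane nidogen, had 66.1, against 31.8, 31.5 and 19.2 (gap 1.03). For all 3 genes Tgfb_Mir9_LOF was the lowest library, with the 2 single treatments in between.

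The same order held for Septin4, a septin, with 18.6 RPKM in Ctr, against 8.60 in Mir9_LOF, 7.46 in Tgfb and 4.00 in Tgfb_Mir9_LOF, and for Prelp, a leucine-rich proteoglycan, with 11.6, against 6.08, 4.49 and 3.30. Svep1, a large extracellular matrix protein, had 13, against 4.76, 6.72 and 3.30, and Nrn1, neuritin, had 23.9, against 12.6, 10.9 and 10.1. Gtf2a2, Ap3s1 and Afap1l2 completed the 10, with gaps of 0.93, 0.89 and 0.82, and Ap3s1 shares 32.7% of its 45-base stretches. U90926 had the largest gap of the noncoding symbols, at 1.26.

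Among the coding genes below the other libraries, Gpc1, the heparan sulfate proteoglycan glypican 1, had 12.8 RPKM in Ctr, against 26.1 in Mir9_LOF, 22.8 in Tgfb and 26.6 in Tgfb_Mir9_LOF, a gap of -0.78, and Tspo, a protein of the outer mitochondrial membrane, had 12.7, against 22.1, 21 and 21.2. Both passed the limit. Short of it were Procr, Mmp9 and Dyrk3, with gaps of -0.57, -0.52 and -0.51, then Angptl2 (-0.49), at 26.2 RPKM in Ctr, against 37.1, 43.3 and 53.1, and Lpcat4, H3f4 and Abtb2.

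**Figure D5:**
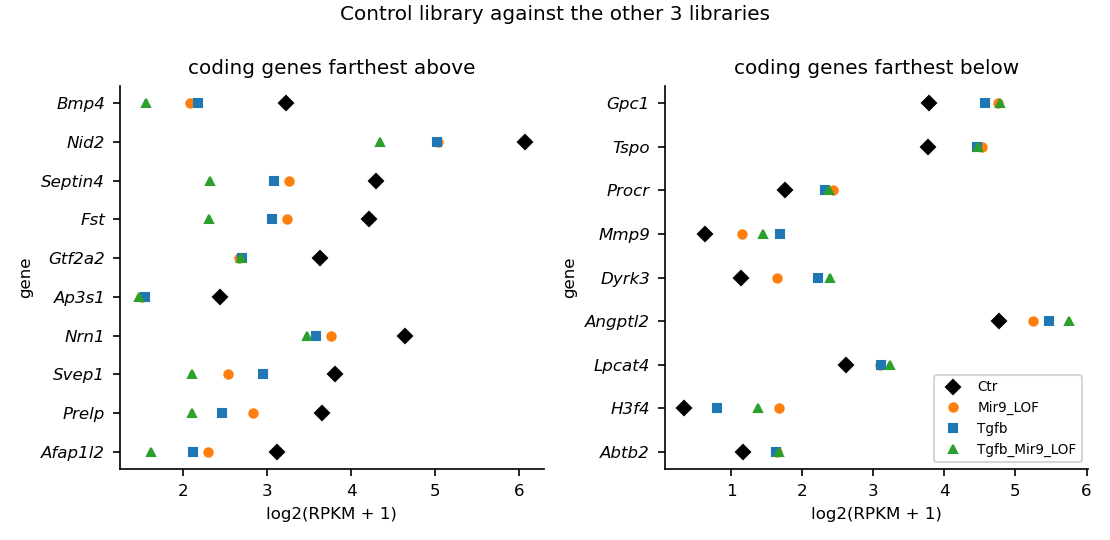
log2(RPKM + 1) in the 4 libraries for coding genes farthest above (left) and farthest below (right) the other 3 libraries in Ctr, 1 symbol per line. The gap from Ctr to the nearest other library is 1.05 for Bmp4 and -0.78 for Gpc1, and of the genes drawn on the right only Gpc1 and Tspo pass 0.58.

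Among the lists, small nucleolar RNAs stood out by this count: Ctr was the lowest library by any amount in 45 of 78, and in 22 by the limit, against 8.8% and 0.264% of all symbols. Some of the 22 rest on few Ctr reads, such as Snord35b and Snord1c with 4 each, while Snord15b had 776. The median over all symbols was 226 Ctr reads, so these shares set features of unlike counting error side by side. With the other scalings the count was 45 to 48 of 78, beside 14 to 19.1% of all symbols. The median over the list of 11.8 RPKM in Ctr lay below that of every other library. Of the receptor tyrosine kinases compared, Ctr was highest in 13 of 22, and of matrix glycoproteins in 24 of 54, by any amount, against 32.8% of all symbols. With the other scalings these counts were 6 to 9 of 22 or 23 and 14 to 19 of 54 or 55, beside 17 to 24.7% of all symbols.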

How the data were processed

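Total RNA from MLg cells was sequenced as 75-base single-end reads, with library names that point to ribosomal RNA depletion. The authors trimmed reads with Trimmomatic to at most 45 bases, aligned them to mm10 by Bowtie2, and used HOMER to count, on both strands, those in exons of RefSeq transcripts. The paper's methods name Trimmomatic version 0.36 for another assay of the study and no version for the RNA libraries. For Bowtie2, HOMER and edgeR the version is not given in the sources here. The deposited table of the whole series holds raw counts for 25388 transcripts in 4 libraries, and RPKM values by edgeR to which the authors had added 1. The transcript length in nucleotides, the other value used, was deposited with them, and 3 log2 columns by the authors, ratios of RPKM + 1 to the control library, were not used. Reads shared by overlapping or antisense genes cannot be told apart. Whether reads that cross exon junctions were lost in aligning to the genome was not tested, so levels set between genes carry more than counting error.

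Here 1 was subtracted from each RPKM, and the transcript with the highest Ctr value stood for each symbol, 5737 of which have several transcripts. For 248 symbols counted as noncoding that transcript is noncoding although coding ones exist. An RPKM of 1 or more was called present. Exact 95% Poisson intervals came from the counts and cover counting error only. All 45-base stretches were compared between transcripts, for 91.8% of the coding symbols, and levels with over 20% shared are called uncertain. The place of Ctr among the libraries used log2(RPKM + 1), a mean RPKM of 1 or more and a limit of 0.58. This scale understates changes of low genes.

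The 50 gene lists, the members and the pairs were chosen with earlier results of these data known. The list of histones was corrected after the values were seen, since its pattern also took in MHC genes. The genes named are the 30 highest coding symbols, the first 3 and up to 8 highest members of each list, those nearest to an RPKM of 1, the 10 farthest above and below the other libraries and the study's genes. Others were chosen after their values were seen. Some genes that this rule names are not reported here. Groups came from the source labels, and no library was left out of the results above. Alternatives tried were other limits, pseudocounts, filters, transcripts per symbol, library scalings and leaving out each compared library or the symbols with shared sequence. For the coding symbols TPM, which scales length-corrected levels to a fixed sum, was also tried, with 1 transcript per symbol. Procedures were tested on simulated data. Python 3.11.15 with pandas 2.3.3, numpy 2.4.6, scipy 1.17.1 and matplotlib 3.10.9 was used.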

Additional observations from a re-analysis of the deposited data

How the results depend on the processing

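The count of 9474 symbols present in Ctr ranged from 7693 to 10771 over the alternatives that kept RPKM. Between 20 and 30 of the 30 most abundant coding symbols were retained. With TPM of 1 or more as the limit, 11229 of the 11772 coding symbols were present in Ctr, against 8894 with RPKM. Of the coding list members 1215 were then present, against 1054. The share of 75.6% set beside the lists thus depends on the unit. The genes that stood apart from the other 3 libraries depended more on the settings. The 54 symbols above became 98 with a pseudocount of 0.1, 4 with a limit of 1, 32 with a mean RPKM of 5 or more, 31 with totals that leave out Rn45s, Mir6236 and Lars2, 30 after centring on the median and 27 with upper-quartile scaling, and all 30 and 27 of the last sets were among the 54. The 25 below became 41 with a pseudocount of 0.1 and 7 with a limit of 1. Leaving out a library widens both sets by construction, since fewer libraries bound the range: 168 above and 117 below without Mir9_LOF, 146 and 112 without Tgfb, and 63 and 26 without Tgfb_Mir9_LOF. Leaving out symbols with shared sequence, an alternative chosen after seeing the data, gave 49 and 23. Otherwise the cause of these shifts was not tested.

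Of the counts of present genes per list, 8 of 450 alternative values moved by more than 1.5 times. Without symbols of shared sequence, 16 ribosomal, 10 glycolysis and 22 histone genes were left. With an RPKM of 2 or more, 10 receptors for Wnt, Hedgehog and Notch ligands, 2 airway and alveolar myofibroblast genes, 2 cartilage and bone genes and 0 endothelial genes were present, and with 0.5 or more, 5 striated muscle genes. For named genes, 10 of 271 values no longer passed, under the limit of 1, and 27 newly passed. No gene that passed the limit in the main setting changed its direction. For genes that had not passed it, changes of direction were not counted.

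No paired analysis was possible because the labels carry no replicate numbers and each condition has 1 library. Reads limit the low values: below 1 RPKM many genes rest on under 100 reads, and without replicates no spread between cultures is known.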
